A study of Mus musculus with 12 samples.

Results

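Well known transcriptional targets of the tumour suppressor p53 were followed through mouse embryonic stem cell differentiation: Cdkn1a, Mdm2, Ccng1, Trp53inp1, Bax, Bbc3, Pmaip1, Sesn1, Perp and Fas. They were chosen by name and are 10 of the 18041 genes tested, which are those with a probe past the filter on dim signals. Their names are carried by 16 of the 41142 probes measured, and 15 of the 26176 probes past the filter. Cy3-labelled RNA of embryonic stem cells of strain 129 was hybridised to 12 one-colour Agilent arrays, in 6 groups of 2. The groups were embryoid bodies (EB, floating aggregates) at days 1, 3 and 4, monolayer cultures (ML) at days 1 and 3, and undifferentiated cells, whose sample names carry LIF, the cytokine that holds mouse embryonic stem cells undifferentiated. The labels give no genotype, no culture medium and no damaging treatment. The arrays of a group are labelled clone 1 and clone 2 and come from independent experiments by different people, and p-values measure only the spread between such arrays.

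p53 is a transcription factor that is held low by the ubiquitin ligase Mdm2 and accumulates after DNA damage and other stress. It then activates genes for cell cycle arrest, apoptosis, metabolism and repair, and it activates Mdm2 itself, which closes a negative feedback loop. Undifferentiated mouse embryonic stem cells are known to hold abundant p53 and to lack a firm G1 checkpoint. The RNA level of p53 targets is a readout of transcription and RNA decay together, and p53 protein was not measured here.

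The p53 response element consists of 2 copies of a 10-base motif, and the promoters of Cdkn1a, Ccng1 and Bbc3 are shown because p53 is known to act through elements near these genes. The 250 bases before a start of each gene are given from RefSeq (GRCm38.p6). The 20 bases that come nearest to the consensus element are in capitals.

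Cdkn1a, chr17:29090729-29090978, + strand: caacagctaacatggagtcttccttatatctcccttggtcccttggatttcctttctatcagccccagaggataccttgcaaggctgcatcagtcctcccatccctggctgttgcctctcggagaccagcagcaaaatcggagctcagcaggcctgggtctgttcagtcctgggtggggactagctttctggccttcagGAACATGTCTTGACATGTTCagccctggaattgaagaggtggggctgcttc

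Ccng1, chr11:40755287-40755536, - strand: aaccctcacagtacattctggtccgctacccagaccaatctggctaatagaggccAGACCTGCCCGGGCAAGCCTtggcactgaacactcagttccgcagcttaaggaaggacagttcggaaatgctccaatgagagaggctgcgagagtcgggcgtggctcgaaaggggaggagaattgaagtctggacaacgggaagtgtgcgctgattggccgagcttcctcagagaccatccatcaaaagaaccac

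Bbc3, chr7:16309333-16309582, + strand: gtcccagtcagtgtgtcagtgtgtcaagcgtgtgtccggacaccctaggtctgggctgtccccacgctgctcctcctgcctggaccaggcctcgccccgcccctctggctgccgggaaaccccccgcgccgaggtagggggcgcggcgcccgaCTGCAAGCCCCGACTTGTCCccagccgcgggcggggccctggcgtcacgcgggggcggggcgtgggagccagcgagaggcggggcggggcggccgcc

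The capitals lie 51 to 32 bases before the upstream of the Cdkn1a starts in the table and 195 to 176 bases before the Ccng1 start. In Bbc3 they lie 97 to 78 bases before the most upstream of its starts. They depart from the consensus p53 element, searched without a spacer and reading the same on both strands, at 1 base in Cdkn1a, 1 base in Ccng1 and 3 bases in Bbc3. Of 32851 promoter windows of 300 bases in the table, 0.0883% hold a match with at most 1 mismatch and 6.29% one with at most 3. With at most 5 mismatches the share is 76.6%. Bases outside these windows were not searched. The best match had 3 mismatches in Bax and at 1 of the Sesn1 starts, and 5 in Mdm2 and Fas. At the other starts it had 5 in Cdkn1a, 5 and 6 in Bbc3 and 6 in Sesn1. The shares above are per window, while Cdkn1a, Bbc3 and Sesn1 had more than 1 window. Trp53inp1, Pmaip1 and Perp have no window in the table. A match in letters is a description and does not show that p53 was bound.

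Levels below are log2 of the background-subtracted signal relative to the array's 75th percentile, so a level of 0 equals that percentile and 1 unit is a doubling. Between 52.1% and 63.8% of spots were well above background. The groups were not spread evenly over slides and scans. Undifferentiated cells lay on 1 slide scanned on 1 day, and EB day 4 on another slide, day and scanner, so changes between either of these and other groups cannot be told apart from slide and scan. EB days 1 and 3 shared 1 slide and ML days 1 and 3 another, all scanned on 1 day. Differences between EB and ML on the same day thus cannot be told apart from slide. The labelled cell type was checked on 9 stem cell and epiblast markers (Pou5f1 and Nanog among them), all well above background on all 12 arrays. Their summed linear level was 662 to 758 in undifferentiated cells and 40.6 to 53.4 in EB day 4. The sum rests most on Dppa5a, which averaged 9.05 on the log2 scale in undifferentiated cells and 4.57 at EB day 4. At EB day 4, 7 of the 9 markers had a lower mean than in undifferentiated cells. The other 2, Fgf5 and Otx2, had a higher mean (2.75, against -2.04, and 0.64, against 0.10). The arrays of ML day 3 differed from each other 2-fold or more at 18.3% of genes, against 3.40% for EB day 1.

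**Figure D1:**
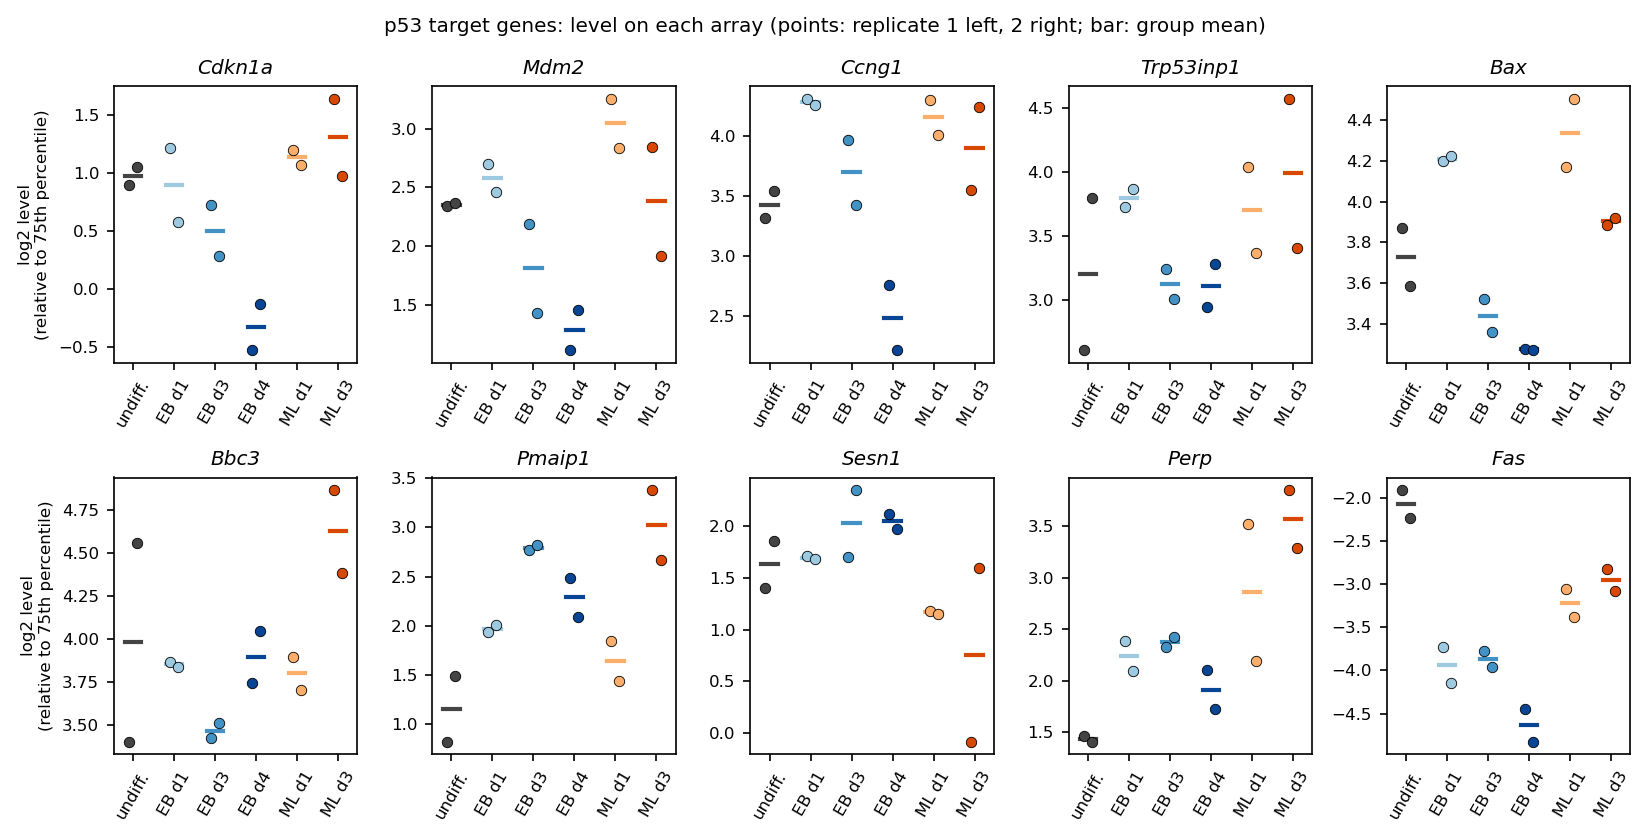
Level of each p53 target gene on all 12 arrays (y axis, log2 relative to the array's 75th percentile, scaled per gene; x axis, groups; points are arrays and bars group means). Cdkn1a, Mdm2 and Ccng1 had their lowest group mean at EB day 4, Pmaip1 and Perp their lowest and Fas its highest in undifferentiated cells.

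Of 110 tests (10 genes in 11 comparisons), 15 passed a Benjamini-Hochberg adjusted p of 0.05 in limma, and 13 of these were against undifferentiated cells. They concerned 6 genes. Fas fell in all 5 differentiating groups, Pmaip1 rose in 3, Perp rose in both ML groups, and Cdkn1a, Mdm2 and Ccng1 fell at EB day 4. Trp53inp1, Bax, Bbc3 and Sesn1 passed the test in none of the 11 comparisons as analysed here, at the probe that represents each gene, although Bax, Bbc3 and Sesn1 did so under some alternatives given with each gene.

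Cdkn1a encodes p21, the inhibitor of cyclin-dependent kinases through which p53 arrests the cell cycle. Its level was 0.89 and 1.05 in undifferentiated cells, 1.22 and 0.58 at EB day 1, 0.72 and 0.29 at EB day 3 and -0.53 and -0.13 at EB day 4. In monolayers it was 1.20 and 1.07 at day 1 and 1.65 and 0.98 at day 3. Both EB day 4 arrays lay below all others. Cdkn1a fell by 1.31 ± 0.31 on the log2 scale (SE) at EB day 4 against undifferentiated cells, or 2.47-fold (adjusted p = 0.00916, limma). Without the first EB day 4 array the adjusted p was 0.0673. Against undifferentiated cells the change was -0.47 at EB day 3 and 0.34 at ML day 3, neither past the test.

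Ccng1 encodes cyclin G1, an early identified p53 target that recruits a phosphatase to Mdm2. Its brighter probe, at base 1068 of the transcript, read 3.31 and 3.54 in undifferentiated cells, 4.31 and 4.26 at EB day 1, 3.97 and 3.42 at EB day 3 and 2.75 and 2.21 at EB day 4. Monolayers had 4.30 and 4.01 at day 1 and 3.55 and 4.24 at day 3. EB day 4 was again below every other array. Ccng1 fell by 0.94 ± 0.30 at EB day 4 against undifferentiated cells (SE, adjusted p = 0.0341, limma) and by 1.21 ± 0.30 against EB day 3 (adjusted p = 0.0339, limma). The fall against EB day 3 was the only call among the 10 genes there, in a comparison where 8.72% of all genes were called lower. Neither Ccng1 call held with the mean of its probes (adjusted p 0.0679 and 0.0681), and leaving out single arrays took the adjusted p up to 0.208 and 0.222. At the second probe (base 3054) EB day 4 read 2.04 and 2.16, against 2.40 and 2.31 in undifferentiated cells.

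Mdm2 was measured by probes at bases 2650 and 921 of its transcript, and these disagreed. The brighter downstream probe represents the gene in the counts. It read 2.34 and 2.37 in undifferentiated cells, 2.70 and 2.46 at EB day 1, 2.19 and 1.43 at EB day 3, 1.11 and 1.45 at EB day 4, 3.26 and 2.84 at ML day 1 and 2.85 and 1.92 at ML day 3. At this probe Mdm2 was 1.07 ± 0.35 lower at EB day 4 than in undifferentiated cells (SE, adjusted p = 0.0375, limma), a call lost without any 1 of the 4 arrays (adjusted p 0.0745 to 0.174). With the mean of the probes Mdm2 was called lower at EB day 3 too.

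The upstream Mdm2 probe read 0.26 and 0.27 in undifferentiated cells, -1.25 and -1.27 at EB day 1, -1.66 and -2.32 at EB day 3, -2.77 and -2.31 at EB day 4, -0.55 and -0.85 at ML day 1 and -0.96 and -1.85 at ML day 3. Both undifferentiated arrays stood above the other 10. With every probe tested on its own, an alternative chosen after seeing the data, this probe was called lower at EB day 1 (-1.52 ± 0.33, adjusted p = 0.0211), EB day 3 (-2.25, adjusted p = 0.00233), EB day 4 (-2.80, adjusted p = 0.000336) and ML day 3 (-1.67, adjusted p = 0.00824), all against undifferentiated cells in limma. Without single arrays the EB day 1 adjusted p reached 0.110. The shares of all probes called lower in these comparisons were 6.97%, 12.8%, 24.1% and 12.9%. The probe is a 60-base sequence at chr10:117129725-117129784 (mm9, - strand) that can be read through in 1 frame, and it is shown because the 2 probes of Mdm2 give different answers.

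Mdm2 probe at base 921: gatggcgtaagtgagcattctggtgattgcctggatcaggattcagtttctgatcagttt

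Within an array, the upstream minus the downstream Mdm2 probe gave -3.69 to -3.95 on the 10 arrays of differentiating cells, against -2.08 and -2.10 in undifferentiated cells. The shift averaged -1.71 and lay between -1.66 at ML day 1 and -1.75 at EB day 1. This difference was chosen after its values were seen. The undifferentiated arrays also had a slide and scan day of their own, so a test over arrays cannot weigh it. Upstream probes of other genes moved the same way. Among 1745 pairs of probes at least 1000 bases apart on 1 gene, the median shift against undifferentiated cells was -0.47 at EB day 1, -0.62 at EB day 3, -0.86 at EB day 4, -0.38 at ML day 1 and -0.62 at ML day 3. A shift at least as low as that of Mdm2 was found in 2.92% of those pairs. The part of this array-wide difference in the changes against undifferentiated cells was not tested, and it moves with slide and scan.

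**Figure D2:**
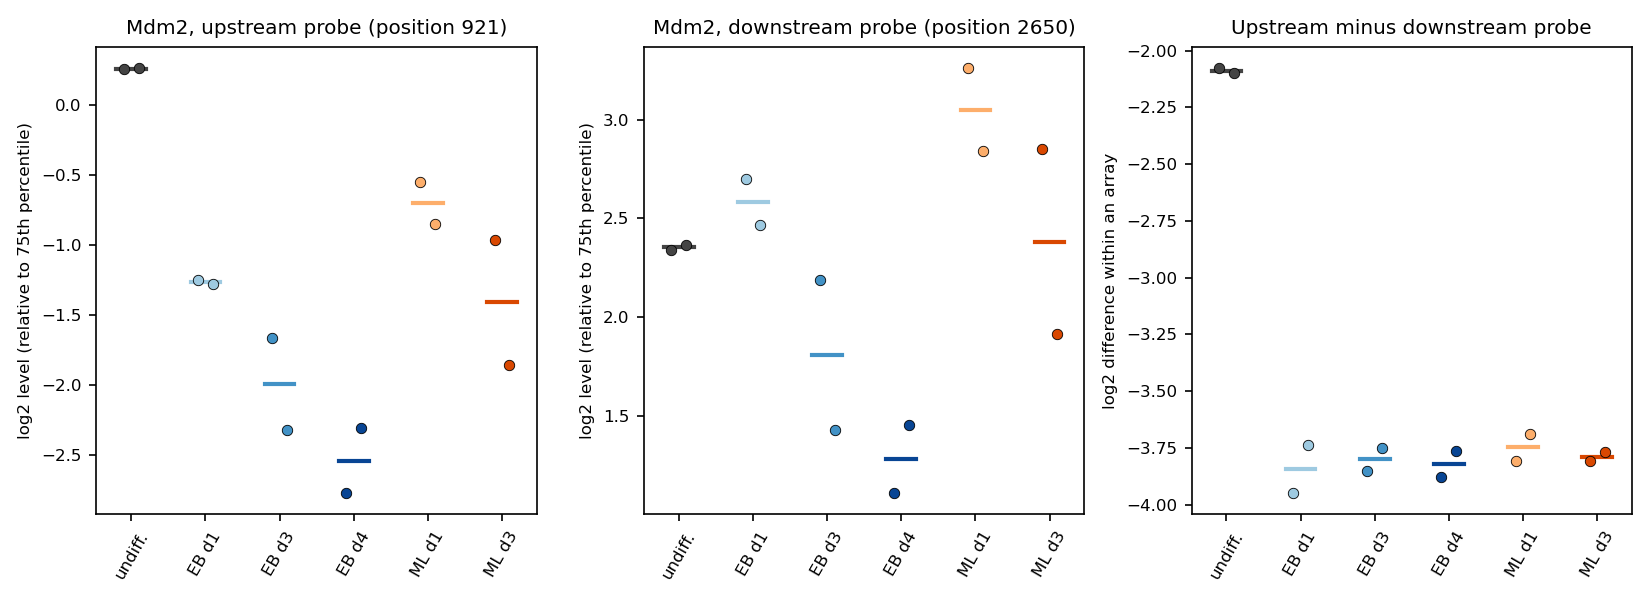
Mdm2 by probe on all 12 arrays (y axes, log2 level for the upstream probe at left and the downstream probe at centre, and their difference within each array at right; points are arrays, bars group means). The difference is -2.08 and -2.10 in undifferentiated cells and between -3.69 and -3.95 on the other 10 arrays.

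**Figure D3:**
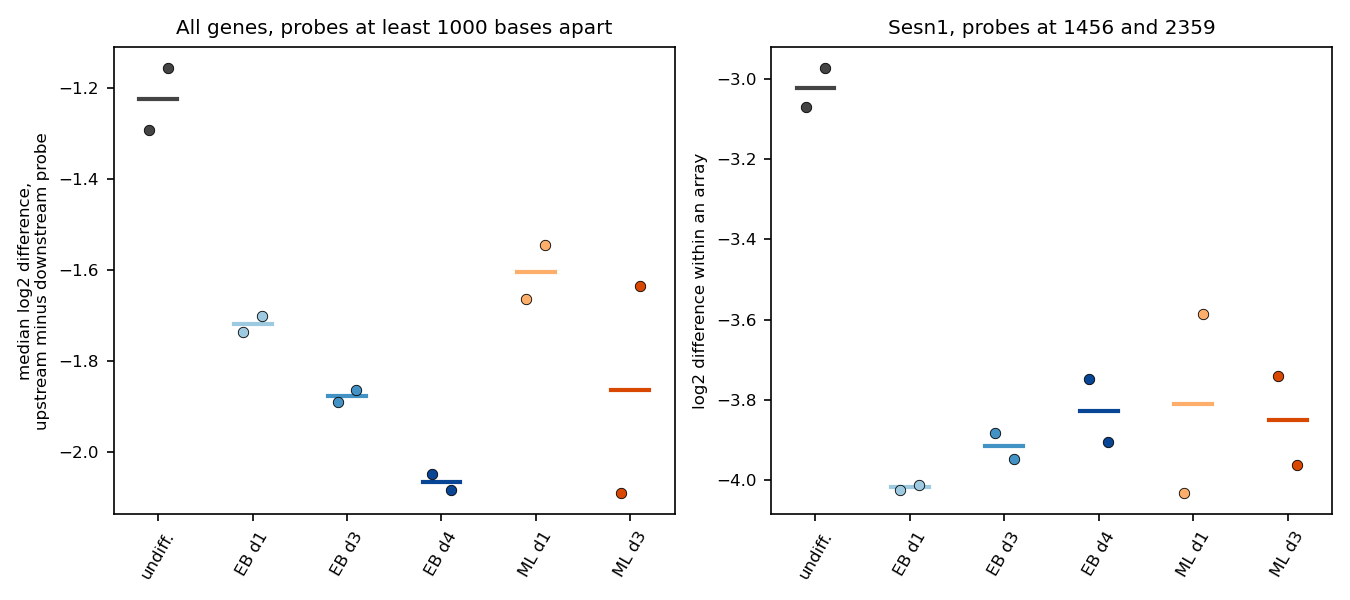
Upstream minus downstream probe of the same gene (y axes, log2), as the median over 1745 pairs at least 1000 bases apart at left and for the Sesn1 probes at bases 1456 and 2359 at right; points are arrays and bars group means. Undifferentiated cells had the least negative values in both panels.

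Sesn1 encodes sestrin 1, a p53-induced inhibitor of mTORC1 signalling, and had 3 probes. The brightest, at base 2359, read 1.40 and 1.86 in undifferentiated cells, 1.71 and 1.68 at EB day 1, 1.70 and 2.35 at EB day 3, 2.11 and 1.98 at EB day 4, 1.18 and 1.15 at ML day 1 and -0.08 and 1.60 at ML day 3. It passed no test with both ML day 3 arrays, which were 1.68 apart. Without the second of them Sesn1 was called lower at ML day 3 than in undifferentiated cells and than at ML day 1, and with the mean of its probes it was called lower at ML day 3 than in undifferentiated cells. The dimmer upstream probes at bases 814 and 1456 were also shifted lower relative to the probe at 2359, by -0.99 and -0.86. These differences too were chosen after the values were seen. Tested on its own, the probe at 814 was called lower at ML day 1 (-1.38) and ML day 3 (-1.67) and the probe at 1456 at ML day 3 (-1.70), all against undifferentiated cells (adjusted p 0.0386, 0.0151 and 0.0222 in limma). The probe at 814 was well above background on only 1 of 2 arrays in each ML group, its ML day 1 call was lost under 8 of 10 alternatives, and its changes came as near to 0 as -0.53 at ML day 1 and -0.63 at ML day 3. These comparisons had 8.25% (ML day 1) and 12.9% (ML day 3) of all probes called lower. None of the 3 calls held without the second undifferentiated array (adjusted p 0.207, 0.0904 and 0.121). Paired probes of Trp53inp1 and Ccng1 shifted by -0.17 and -0.02 over the same arrays. The Ccng1 average covers groups that moved in opposite directions. Its upstream minus its downstream probe averaged 1.07 in undifferentiated cells, 1.41 at EB day 1 and 0.39 at EB day 4. The EB day 4 arrays read 0.72 and 0.05.

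Trp53inp1 encodes a nuclear protein that takes part in p53-driven stress responses and autophagy. Its brighter probe (base 5041) read 2.61 and 3.80 in undifferentiated cells, 3.73 and 3.87 at EB day 1, 3.25 and 3.00 at EB day 3, 2.94 and 3.28 at EB day 4, 4.04 and 3.37 at ML day 1 and 4.57 and 3.40 at ML day 3. Every pair of neighbouring groups, ordered by mean, overlapped. The arrays of undifferentiated cells were 1.19 apart and those of ML day 3 were 1.17 apart, more than the 0.88 between its highest and lowest group mean.

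Among the apoptosis genes, Bax and Bbc3 passed no test as analysed here. Bax, the pore-forming protein of the outer mitochondrial membrane, read 3.87 and 3.59 in undifferentiated cells, 4.20 and 4.22 at EB day 1, 3.52 and 3.36 at EB day 3, 3.28 and 3.27 at EB day 4, 4.17 and 4.51 at ML day 1 and 3.89 and 3.92 at ML day 3. Its EB day 3 arrays lay below its EB day 1 arrays on the same slide, with a change of -0.77 ± 0.20 (SE, adjusted p = 0.0598, limma). That was the smallest adjusted p of the 10 genes in that comparison, where 0 were called, against 5.38% of all genes, and 2 had an unadjusted p under 0.05, against 20.03% of all genes. Under alternatives Bax was called in 3 comparisons. It was called lower at EB day 4 than in undifferentiated cells with normexp, quantile normalization or the authors' values, higher at ML day 1 with normexp or the strict filter, and lower at EB day 3 than at EB day 1 with normexp. Bbc3 encodes Puma, a BH3-only activator of Bax. It read 3.40 and 4.56 in undifferentiated cells, which spanned most of its range, and 4.87 and 4.39 at ML day 3, its highest group mean. The other 4 groups lay between 3.42 and 4.05. Against undifferentiated cells Bbc3 was called lower at EB day 3 without the first undifferentiated array and higher at ML day 3 without the second, so these calls rest on which of those arrays is kept.

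Pmaip1 encodes Noxa, a BH3-only protein that binds Mcl1. Its level was 0.82 and 1.49 in undifferentiated cells, 1.93 and 2.01 at EB day 1, 2.77 and 2.82 at EB day 3 and 2.49 and 2.09 at EB day 4, and 1.84 and 1.43 at ML day 1 and 3.38 and 2.67 at ML day 3. Day 3 was above day 1 in both culture forms, with no overlap. Pmaip1 rose 3.11-fold at EB day 3 (1.64 ± 0.31, SE, adjusted p = 0.00695, limma), 3.65-fold at ML day 3 (adjusted p = 0.00419) and 2.19-fold at EB day 4 (adjusted p = 0.0182) against undifferentiated cells. Within the ML slide it rose 2.62-fold at day 3 against day 1 (adjusted p = 0.0227, limma), the 1 call among the 10 genes there, where 5.75% of all genes were called higher. That call was lost without 3 of its 4 arrays in turn (adjusted p up to 0.173), and the EB day 4 call without the first undifferentiated or the first EB day 4 array (0.110 and 0.114). The EB day 3 change against EB day 1 was 0.82 (adjusted p = 0.178, limma).

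Perp encodes a tetraspan protein of desmosomes, needed for p53-driven apoptosis in some cells and for adhesion of stratified epithelia. Its level was 1.46 and 1.41 in undifferentiated cells, 2.39 and 2.09 at EB day 1, 2.33 and 2.43 at EB day 3 and 2.10 and 1.73 at EB day 4, and 3.52 and 2.20 at ML day 1 and 3.85 and 3.29 at ML day 3. Every differentiating array was above both undifferentiated arrays. Perp rose 4.40-fold at ML day 3 (2.14 ± 0.39, SE, adjusted p = 0.0060, limma) and 2.68-fold at ML day 1 (adjusted p = 0.0371), against undifferentiated cells. Without the first ML day 1 array the ML day 1 change was 0.76 (adjusted p = 0.181), and that call was also lost with quantile normalization, the authors' values or no filter (adjusted p 0.0591 to 0.0805). The summed linear level of 7 surface epithelium markers (Krt5, Krt14, Krt8, Krt18, Epcam, Cdh1 and Dsp, 6 or 7 of them well above background on each array) was 197 to 379 at ML day 3, 96.8 to 207 at ML day 1 and 50.3 to 68.0 in undifferentiated cells. Its higher value was in the array with the higher Perp at ML day 1, ML day 3, EB day 1 and EB day 3. In undifferentiated cells and at EB day 4 it was in the array with the lower Perp. The sum was also 162 to 256 at EB day 3 and 303 to 376 at EB day 4, where Perp was not called. At EB day 4 the sum is carried by Krt8 and Krt18, the keratins of simple epithelia. There these and Dsp had the higher mean, while 4 of the 7 markers had a lower mean than in undifferentiated cells, among them Epcam (2.53, against 3.13) and Cdh1 (3.61, against 4.02). In both ML groups all 7 had the higher mean. Its part in the rise of Perp was not tested, and in bulk RNA more cells of a type and more RNA per cell cannot be told apart.

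Fas encodes the death receptor bound by Fas ligand on the cell surface. Its level was -1.91 and -2.23 in undifferentiated cells, -3.73 and -4.14 at EB day 1, -3.77 and -3.96 at EB day 3 and -4.44 and -4.83 at EB day 4, and -3.06 and -3.38 at ML day 1 and -2.82 and -3.08 at ML day 3. No array of differentiating cells reached the undifferentiated ones, and the ML arrays lay between these and all EB arrays. Against undifferentiated cells Fas fell 3.64-fold at EB day 1 (-1.86 ± 0.25, SE, adjusted p = 0.00509, limma), 3.47-fold at EB day 3 (adjusted p = 0.00179), 2.22-fold at ML day 1 (adjusted p = 0.0183) and 1.84-fold at ML day 3 (adjusted p = 0.0324). At EB day 4 it was not well above background on either array and was at least 4.62-fold lower (adjusted p = 0.000132, limma), the bound being set at the lowest signal well above background on those arrays.

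The 3 EB calls of Fas held under every alternative that tested it, although with normexp background correction the changes were -0.94, -0.98 and -0.74. Both ML calls were lost without any 1 of their 4 arrays (adjusted p 0.0506 to 0.125), and the ML day 3 call also with quantile normalization, the authors' values or no filter (adjusted p 0.0539 to 0.0808). The summed level of 8 fibroblast markers (Col1a1, Col1a2, Col3a1, Col6a1, Thy1, Dcn, Acta2 and Twist2), which would mark feeder cells, was 22.0 to 25.9 at EB day 1, 20.9 to 22.8 at EB day 3, 16.2 to 22.2 at EB day 4, 37.9 to 38.0 at ML day 1 and 34.5 to 37.3 at ML day 3, against 29.4 to 48.8 in undifferentiated cells. All 8 were well above background on the arrays of every group except EB day 4, where 6 or 7 were. Of the 8 markers, 7 had a lower mean than in undifferentiated cells in each EB group, 6 at ML day 1 and 5 at ML day 3. The sum at ML day 1 rests most on Acta2, which averaged 4.58, against 3.86 in undifferentiated cells. At ML day 1 Col3a1 averaged -3.17, against -0.71 in undifferentiated cells. Of the undifferentiated arrays, the first had the higher sum and the higher Fas, and so it was at EB day 1 and ML day 3. At EB day 3, EB day 4 and ML day 1 the second array had the higher sum and the first the higher Fas. The part of such cells in the Fas result was not tested.

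**Figure D4:**
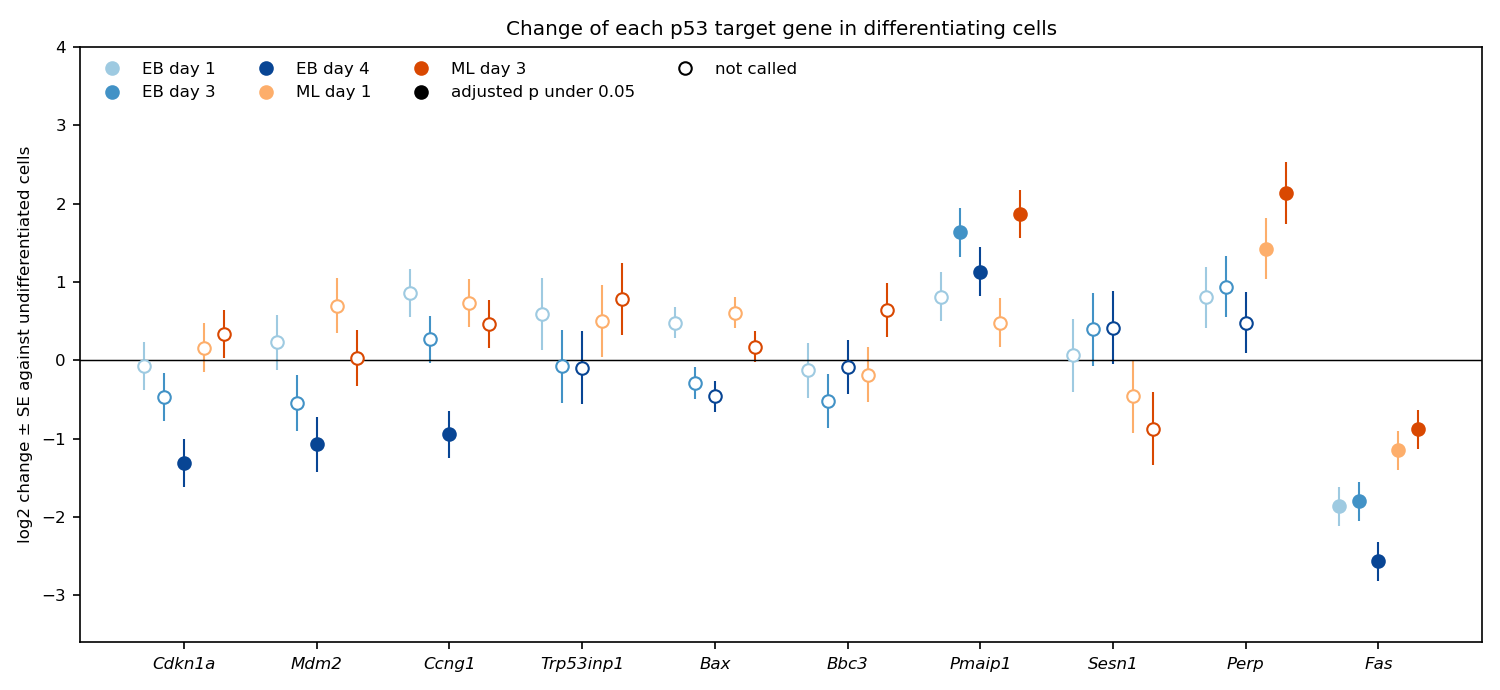
Log2 change of each p53 target gene against undifferentiated cells (y axis, points with SE bars; x axis, genes; colours, the 5 differentiating groups; filled points passed an adjusted p of 0.05 in limma). Fas is below 0 and filled in all 5 groups, Pmaip1 is filled above 0 in 3 and Perp in 2, and Cdkn1a, Mdm2 and Ccng1 are filled below 0 at EB day 4 alone; the Fas point at EB day 4 is the fitted value, not the bound.

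Counted by comparison, the calls stood as follows. At EB day 1, 1 of 10 was called lower and 0 higher against undifferentiated cells, where 5.39% of all genes were called lower and 7.93% higher. ML day 1 gave 1 lower and 1 higher (6.38% and 11.4% of all genes), EB day 3 gave 1 lower and 1 higher (10.7% and 12.9%), and ML day 3 gave 1 lower and 2 higher (10.8% and 12.6%). At EB day 4, 4 were called lower and 1 higher, against 22% and 18.8% of all genes. The median log2 change of the 10 genes was -0.27 at EB day 4 and 0.40 at ML day 3, against medians over all genes of -0.04 and 0.03. It was 0.36 at EB day 1, 0.49 at ML day 1 and -0.18 at EB day 3, against 0.09, 0.13 and 0.05.

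EB day 3 was compared with ML day 3, on different slides scanned on the same day. Culture form and slide cannot be told apart in this comparison. For 9 of the 10 genes EB day 3 had the lower mean, Sesn1 being the exception. In limma 6 had an unadjusted p under 0.05, against 17.6% of all genes, and 0 were called, against 3.24% of all genes. Fas came nearest, at -3.77 and -3.96 in EB day 3 against -2.82 and -3.08 in ML day 3 (-0.92 ± 0.25, SE, adjusted p = 0.0888, limma). Bbc3 (-1.16), Perp (-1.19) and Cdkn1a (-0.81) had adjusted p-values of 0.119, 0.151 and 0.213. Sesn1 was 1.27 ± 0.46 (SE, adjusted p = 0.194, limma), and was called higher in EB day 3 without the second ML day 3 array. The median over the 10 genes was -0.69, and over all genes it was 0.02. Marker sums also differed, with 5 endoderm markers at 63.3 to 65.0 in EB day 3 against 3.57 to 4.18 in ML day 3, and 4 primitive streak and mesoderm markers at 22.0 to 45.7 in EB day 3 against 4.33 to 5.44 in ML day 3. Their part in these differences was not tested. At day 1, 5 of the 10 genes had the lower mean in EB and 5 the higher, 0 were called by limma, against 0.0665% of all genes, and 1 had an unadjusted p under 0.05, against 9.25% of all genes. The day 3 minus day 1 change did not differ between EB and ML for any of the 10 at an adjusted p of 0.05 (smallest 0.438, Bbc3, limma, with 0.238% of all genes called, and 1 of the 10 and 10.1% of all genes at an unadjusted p under 0.05).

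Trp53 itself, the gene for p53, fell at EB day 4 against undifferentiated cells, by 0.97 ± 0.30 (SE, adjusted p = 0.0289, limma). Its brighter probe read 0.96 and 0.54 at EB day 4, against 2.10 and 1.34 in undifferentiated cells. At its other probe, at base 69 and so upstream of the brighter one at base 960, the group means were 0.066 at EB day 4, against 1.40 in undifferentiated cells. Over all genes, upstream minus downstream probes 300 to 1000 bases apart shifted by a median of -0.50 between these groups. The part of that shift at this probe was not tested. In the other 4 groups the brighter probe read between 0.90 and 1.77 and passed no test against undifferentiated cells. Of 20 measured genes of the p53 family and its regulators, 2 were called higher and 4 lower at EB day 4 (10% and 20%, against 18.8% and 22% of all genes) and 1 higher and 3 lower at ML day 3 (5% and 15%, against 12.6% and 10.8%). Mdm4, the Mdm2 relative that masks the activation domain of p53, fell at EB day 3 (-1.61 ± 0.38, adjusted p = 0.0156, limma) and ML day 3 (-1.24, adjusted p = 0.0416), with -0.74 at EB day 4 (adjusted p = 0.143), all against undifferentiated cells, whose 2 arrays read 0.19 and 1.34. Chek2, a checkpoint kinase that phosphorylates p53, fell in these 3 comparisons, by 2.00 at EB day 3, 2.01 at ML day 3 and 2.51 at EB day 4. The adjusted p-values were 0.0318, 0.0313 and 0.00719 (limma). Its ML day 3 arrays were far apart, at -2.51 and -0.44, against 0.49 and 0.58 in undifferentiated cells.

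Crebbp, a p53 acetyltransferase, rose in all 5 groups against undifferentiated cells, by 1.04 at ML day 3 to 1.87 at EB day 4 on the log2 scale. Hipk2, a kinase that phosphorylates p53, read 0.20 and 1.44 at EB day 3 and 2.48 and 2.51 at EB day 4, against -1.35 and -2.57 in undifferentiated cells, and rose by 2.78 and 4.45 (adjusted p = 0.00689 and 0.000326, limma). Cdkn2a, whose Arf product inhibits Mdm2, passed no test against undifferentiated cells and was lower at EB day 3 than at EB day 1 (-1.38, adjusted p = 0.0424, limma).

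In a wider list of 46 measured p53 targets, more were called lower than higher in all 5 differentiating groups. At EB day 4, 20 were called lower and 3 higher against undifferentiated cells (43.5% and 6.52%, against 22% and 18.8% of all genes), with a median change of -0.79 against -0.04 over all genes. The counts were 11 lower and 3 higher at EB day 3 (median -0.46), 4 and 2 at EB day 1 (median 0.07), 5 and 4 at ML day 1 (median 0.27) and 7 and 3 at ML day 3 (median 0.06). The EB day 3 counts are 23.9% lower and 6.52% higher, against 10.7% and 12.9% of all genes. Those of EB day 1 are 8.70% lower and 4.35% higher, against 5.39% and 7.93%. Those of ML day 1 are 10.9% lower and 8.70% higher, against 6.38% and 11.4%. The ML day 3 counts are 15.2% lower and 6.52% higher, against 10.8% and 12.6% of all genes. Between EB day 3 and ML day 3, 7 were called lower (15.2%, against 1.66% of all genes) and 0 higher (against 1.57%). The list was drawn up with earlier results of these data known, so its counts are a description.

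Plk3, a stress-activated kinase, read -0.91 and -0.93 at EB day 4, against 1.94 and 2.04 in undifferentiated cells, a change of -2.91 ± 0.26 (SE, adjusted p = 0.000102, limma). It was also lower within single slides, by 1.70 at EB day 3 against EB day 1 and by 1.97 at ML day 3 against ML day 1. Ephx1, a detoxifying epoxide hydrolase, read -3.20 and -3.73 at EB day 3, against 1.02 and 0.39 in undifferentiated cells, and was not well above background at EB day 4. Igfbp3, which binds insulin-like growth factors, was higher in monolayers, at 4.43 and 3.21 at ML day 3 against 0.44 and 0.53 in undifferentiated cells (3.33 ± 0.44, SE, adjusted p = 0.00159, limma).

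Among 25 measured genes of the BCL-2 family and death pathway, 4 were called higher and 3 lower at EB day 4 (16% and 12%, against 18.8% and 22% of all genes) and 4 higher and 0 lower at ML day 3 (16% higher, against 12.6%, and 10.8% of all genes lower). Bcl2l1, which encodes the survival protein Bcl-xL, rose at ML day 1 (1.39), EB day 3 (1.17), ML day 3 (1.05) and EB day 4 (1.27). Mcl1, the survival protein that Noxa binds, fell by 1.28 ± 0.26 at EB day 3 and by 1.33 ± 0.26 at EB day 4 (SE, adjusted p = 0.00959 and 0.00402, limma). All of these are against undifferentiated cells.

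Of 21 measured cyclin-dependent kinase inhibitors and their partners, 7 were called lower and 4 higher at EB day 4 (33.3% and 19.05%, against 22% and 18.8% of all genes) and 5 lower and 0 higher at ML day 3 (23.8% lower, against 10.8%, and 12.6% of all genes higher). Cdkn2c, the p18 inhibitor, fell in all 5 groups against undifferentiated cells, by 1.31 at ML day 1 to 1.97 at EB day 4. Cdkn1c, the p57 inhibitor in the same family as p21, was higher at EB day 4 than at EB day 3 by 1.71 ± 0.30 (SE, adjusted p = 0.0101, limma), while Cdkn1a was -0.84 in that comparison (adjusted p = 0.107).

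The profile of Cdkn1a over the 12 arrays was matched most closely by Phlda3, a p53-induced inhibitor of Akt that was also on the list of wider targets. After each gene was centred on its own mean, Phlda3 differed from Cdkn1a by 0.159 log2 units per array on average, a probe named NAP052665-1 by 0.160 and Usp39, a splicing factor, by 0.161. The median over 18031 genes was 0.576. Mdm2 was nearest among the other 9 members, at 0.245, and Pmaip1 farthest, at 0.817. The 12 arrays share slides and scans, so likeness includes whatever those share.

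**Figure D5:**
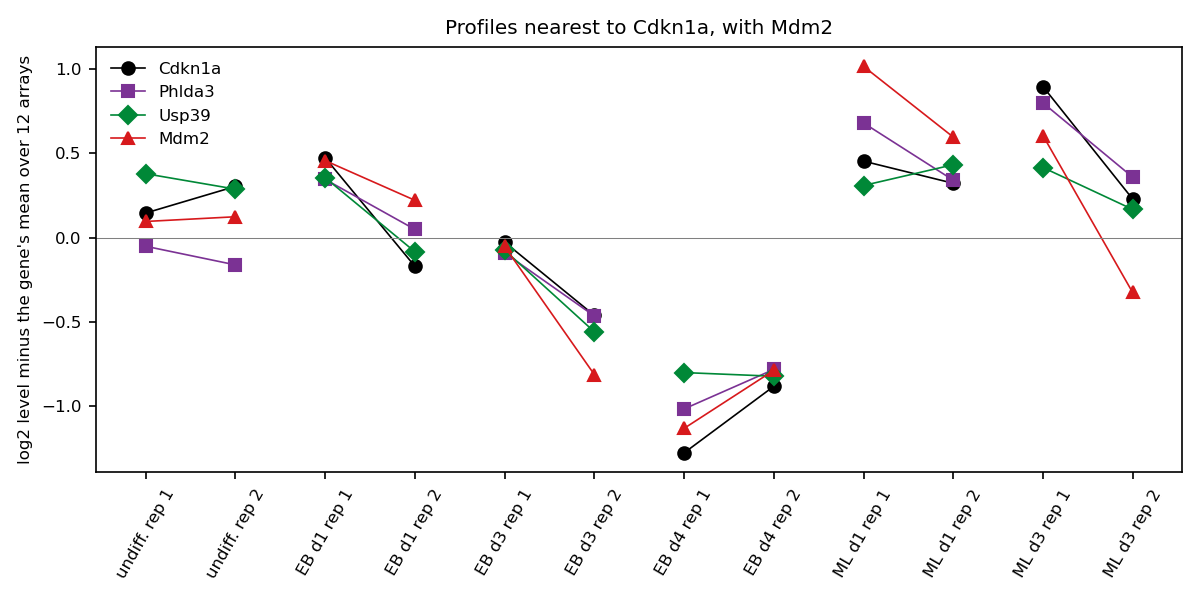
Levels of Cdkn1a, Phlda3, Usp39 and Mdm2 on each of the 12 arrays (y axis, log2 level minus the gene's own mean over the arrays; x axis, arrays; thin lines join the 2 arrays of a group). All 4 genes were below -0.7 on both EB day 4 arrays and above 0.3 on the first ML day 1 array.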

How the data were processed

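Total RNA was labelled with Cy3 and hybridised to 12 arrays, 1 sample each, grouped by the labels. The scanner files hold spot signal as intensity, background-subtracted and detrended by Agilent Feature Extraction, with per-spot flags as other values, per the file headers. The submitters' processing notes name version 9.5.1.1, and the headers 10.5.1.1 (undifferentiated), 10.7.3.1 (EB and ML days 1 and 3) and 10.7.1.1 (EB day 4). The authors' deposited value table is linear intensity with equal quantiles on every array and served as an alternative.

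Main values were log2 processed signals scaled to the 75th percentile of each array. Outlier-flagged spots were left out, and spots of a probe were averaged. Probes flagged well above background on both arrays of any group were tested (26176), and the probe with the highest mean stood for its gene. Gene names at 12727 spots differ between 2 annotation versions in the files, but not for the 10 genes. Probe positions are in mm9.

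Limma 3.58.1 (R 4.3.3) fitted 6 group means to all 12 arrays (6 residual and 3.19 prior degrees of freedom), with a two-sided test and Benjamini-Hochberg adjustment over 18041 genes within each comparison. The same fit was also run on data simulated from the genes' own means and spreads. The clone number was checked as a pairing (replicate 2 minus 1, across genes, correlated at -0.154 to 0.227 between groups) and was not used. All 10 members are named, with the 3 genes most like Cdkn1a and, from 4 lists of related genes, Trp53, Mdm4 and Cdkn2a and up to 4 called genes per comparison with the largest change. Some of these are not reported here. Members and lists were chosen with earlier results of these data known. Alternatives were the authors' values, quantile normalization, normexp with offset 50, probe means per gene, no filter or a strict one, a replicate block, the compared groups or the scan day alone, and leaving out each array. Testing each probe was added after seeing the data. The number of arrays limits precision, and signal over background limits it for dim probes. Figures were drawn with matplotlib 3.10.9.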

Additional observations from a re-analysis of the deposited data

Results flagged for a closer look

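The second Fas probe lies at base 424 of a transcript record other than that of the first Fas probe. It was left out of every comparison because no group had both arrays well above background. It was well above background on 2 of 12 arrays, ML day 1 replicate 1 (log2 level -4.64) and ML day 3 replicate 1 (-5.30), and not on either undifferentiated array, where the first Fas probe had its highest levels.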

How the results depend on the processing

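No called change reversed under any alternative. Of 22 called changes (15 of genes, 7 of single Mdm2 and Sesn1 probes), 7 held under all that were run: Fas at EB days 1, 3 and 4, Pmaip1 at EB day 3, Perp at ML day 3 and the upstream Mdm2 probe at EB days 3 and 4, all against undifferentiated cells. Over the 22, 185 of 246 results under alternatives kept the call. The number of the 10 genes called moved by over 1.5 times as follows. Fitting the compared groups alone gave 3 of 10 for EB day 4, 1 for ML day 3 and 0 for ML day 1 against undifferentiated cells, 0 for ML day 3 against ML day 1 and 0 for EB day 4 against EB day 3. The strict filter, which removes Fas, gave 0 at EB day 1 and 1 at EB day 3 against undifferentiated cells. ML day 1 against undifferentiated cells gave 1 each with quantile normalization, the authors' values and no filter, EB day 3 against EB day 1 gave 1 with normexp, and EB day 4 against EB day 3 gave 0 with the mean of probes. Smaller moves gave 4 to 6 for EB day 4, 2 to 4 for ML day 3, 3 for ML day 1 with normexp and 3 for EB day 3 with the mean of probes, against 5, 3, 2 and 2 as reported. The replicate block gave 2 for EB day 4 against EB day 3 and 1 for EB day 3 against ML day 3. The labels do not state whether clone numbers pair the samples. Leaving out 1 array gave 2 to 3 called for EB day 4 against undifferentiated cells, 0 to 1 for ML day 1, 0 to 2 for ML day 3 against ML day 1, 0 to 1 for EB day 4 against EB day 3 and 0 to 1 for EB day 3 against ML day 3. The causes were not tested. Signal over background limits Fas and the upstream Sesn1 probes.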
